A study of Homo sapiens with 12 samples.

Results

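The 5S rRNA genes and 5S pseudogenes were the entries of the deposited count tables whose symbol was RNA5S followed by a number, or began with RNA5SP, and whose mean was at least 10 counts over the 12 libraries. They numbered 95 of 61163 entries, made up of 19 of 34 gene symbols and 76 of 538 pseudogene symbols. The entries were therefore chosen by their measured counts, so that their levels are given here as a description, without a test. Of the symbols left out, 14 genes and 57 pseudogenes had no count in any library, and 405 pseudogenes had counts above 0 but below the minimum. The last entries inside the minimum were RNA5SP392, RNA5SP431 and RNA5SP500, with means of 10.7, 10.3 and 10.2 counts, and the first outside it were RNA5SP33, RNA5SP289 and RNA5SP195, with means of 9.25, 9.17 and 8.83 counts.

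RNA was sequenced from HEK293T cells, an established human embryonic kidney line that carries a viral large T antigen, in the parental form (HEK WT) and in a line made from it in which HNRNPUL1, the gene of the RNA-binding protein hnRNP UL1, was knocked out with CRISPR-Cas9 (HEK UL1 KO). Whether that line grew from 1 clone is not given in the sources used here. Each genotype was fractionated into a nucleolar (NO) and a cytoplasmic-nuclear (CN) fraction, with 3 replicates of each, and total RNA was sequenced without removal of rRNA to ask which transcripts depend on hnRNP UL1. Nothing in the labels says that the replicates came from separate cultures, so the p-values measure the spread between these libraries, which may be technical.

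The ribosome holds 1 molecule of 5S rRNA, which lies in its large subunit together with 5.8S and 28S rRNA. Unlike those, it is not cut from the nucleolar precursor made by RNA polymerase I but is transcribed by RNA polymerase III outside the nucleolus, from a tandem array of short genes. The promoter lies inside the transcribed sequence, in 3 elements named box A, the intermediate element and box C, which the zinc finger protein TFIIIA binds. The new RNA is held by La, then bound by the ribosomal proteins RPL5 and RPL11 and taken into the nucleolus. Cellular RNAs have also been copied back into the genome many times, and most 5S pseudogenes are such dispersed, partly truncated copies.

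The library totals ranged from 37141666 to 104040073 counts. HNRNPUL1 had 551 to 697 counts in the HEK WT and 152 to 453 in the HEK UL1 KO libraries of the NO fraction, and 1290 to 1495 against 288 to 360 in the CN fraction, with log2 fold changes of -2.0 (SE 0.323, adjusted p = 0.00649) and -1.83 (SE 0.0828, adjusted p = 2.12e-07) by edgeR's quasi-likelihood test. Of the lists set for the check of the samples, 5 of 5 nucleolar RNAs were higher in NO than in CN of HEK WT (log2 1.93 to 4.89), and 3 of 5 cytoplasmic mRNAs were lower in NO (log2 over all 5 from -0.86 to -0.26). The HEK293T markers VIM, KRT8, KRT18, NEFM and LIN28B were counted in all libraries, with 37 counts or more, while the liver marker ALB had 0 to 26 counts. The leukocyte marker PTPRC had 5 to 178 counts and overlapped with the lower of the HEK293T markers. In HEK WT NO replicate 3 it had 113 counts, where KRT8, KRT18 and NEFM had 90, 43 and 107. HEK WT NO replicate 3 stood apart in scaling: its normalization factor (TMM, trimmed mean of M values, which sets the bulk of genes level between libraries) was 1.40, against 0.690 and 0.622 in the other HEK WT NO libraries and 1.09 to 1.34 in HEK UL1 KO NO.

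The gene and its pseudogenes were compared base by base, on GRCh38 at the coordinates given by RefSeq (GRCh38.p14) and on the strand of the 5S sequence. RNA5S1 lies at chr1:228610266-228610386 on the minus strand, with box A at positions 50 to 64, the intermediate element at 67 to 72 and box C at 80 to 97. RNA5S9 lies at chr1:228628146-228628266 on the minus strand and differs from it by a single base, T84C, where positions are counted from 1 at the 5′ end of RNA5S1 here and in what follows.

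The pseudogenes with the highest counts mostly begin at the first base of 5S and break off near position 90 or earlier. RNA5SP389 lies at chr14:106636572-106636861 on the plus strand, between genes. RNA5SP145 lies at chr3:151188099-151188223 on the plus strand, in an intron of MED12L on the same strand. RNA5SP149 lies at chr3:180161887-180161977 on the minus strand, between genes, and RNA5SP141 at chr3:134783436-134783555 on the minus strand, in introns of 2 long non-coding RNA genes. RNA5SP216 lies at chr6:125979812-125979934 on the minus strand, over an exon of HINT3 on the opposite strand, and RNA5SP370 at chr12:104125236-104125325 on the plus strand, in an intron of NFYB on the opposite strand.

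Other pseudogenes run nearly to the end of 5S. RNA5SP150 and RNA5SP202 were among those with the highest counts, and RNA5SP74 and RNA5SP336 had the largest differences between the genotypes in the CN fraction that passed the test. RNA5SP150 lies at chr3:181822872-181822990 on the minus strand, in an intron of SOX2-OT on the opposite strand, and RNA5SP202 at chr6:4427963-4428081 on the plus strand, in an intron of a long non-coding RNA gene on the opposite strand. RNA5SP74 lies at chr1:204562413-204562521 on the minus strand, between genes, and RNA5SP336 at chr11:21000881-21000997 on the minus strand, in an intron of NELL1 on the opposite strand.

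Over the stretch they share with RNA5S1, RNA5SP389 and RNA5SP370 had no difference from position 1 to 90, and RNA5SP216 had none from 1 to 50. RNA5SP149 carried T84A, at the same position as the base that sets RNA5S9 apart but with another base, and RNA5SP141 carried C63T, inside box A. RNA5SP150 carried G60T, T76C and G82C, and RNA5SP202, the closest full-length copy, only G27C, so that it kept exact letters for all 3 promoter elements. RNA5SP74 carried G25A, G51A and G106T and lacked bases in its first part, while RNA5SP336 carried G37A, C46T, G64A and G93T over positions 35 to 119. These matches describe the sequence and say nothing of whether a factor bound there.

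Of the 19 gene entries, 17 were located, all in an array on chr1:228610266-228646158 on the minus strand, with 121 bases each and a median of 2241 bases from 1 start to the next. Of these, 16 shared both the sequence of RNA5S1 and its count in every library, so that they hold a single measurement listed 16 times. That count was 245, 171 and 159 in HEK WT NO, 187, 230 and 115 in HEK UL1 KO NO, 270, 230 and 316 in HEK WT CN and 177, 171 and 95 in HEK UL1 KO CN. The copy with its own base, RNA5S9, had 540, 379 and 338 counts in HEK WT NO, 419, 521 and 246 in HEK UL1 KO NO, 519, 409 and 621 in HEK WT CN and 411, 386 and 221 in HEK UL1 KO CN. RNA5S9 was above RNA5S1 in all 12 libraries, by a ratio of 1.78 to 2.33 (median 2.21). The entries RNA5S1_1 and RNA5S17_1, with means of 42.9 and 373 counts, were not located.

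The pseudogenes held nearly all counts of the family. Their summed count was 29.7 to 43.3 times that of the genes, 96.7 to 97.7% of the 5S counts in every library. With entries of equal counts taken once, it was 115 to 199 times, or 99.1 to 99.5%. The pair RNA5SP389 and RNA5SP389_1 had nearly the same count in each library (ratio 1.0003 to 1.0009), with means of 26677 and 26661 counts. RNA5SP389_1 was not located, and whether the pair shares reads was not tested. As their counts are not exactly equal, both stayed in the sums with equal entries taken once, where the equal gene copies were merged. Those ratios of 115 to 199 would be lower with the pair taken once. With RNA5SP145 (mean 21045 counts), RNA5SP149 (20182), RNA5SP141 (14580) and RNA5SP216 (9240) they made up 78.6 to 87.1% of the pseudogene counts of a library. In all, 11 pseudogenes and no gene had a mean of 1000 counts or more, and the median mean was 65.3 counts among the pseudogenes and 197 among the genes. Per 100 bases of entry, the genes had a median of 163 counts and RNA5S9 the highest value, 345, while the pseudogenes ranged from 2.02 to 22178 with a median of 55.6. There, RNA5SP149 was highest with 22178 counts per 100 bases, followed by RNA5SP145 with 16836, RNA5SP141 with 12150 and RNA5SP389 with 9199, and 17 of the 74 located pseudogenes lay above RNA5S9.

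How far a pseudogene matched 5S went with how many counts it had. Among the 74 located pseudogenes, the longest run identical to RNA5S1 had a median of 32 bases and ranged from 17 to 92, while it was 17 bases (8 to 38) among the 432 located and aligned pseudogenes below the minimum. The 7 pseudogenes with a run of at least 75 bases, the length of a read, had a median mean of 6539 counts (872 to 26677). The 12 with runs of 50 to 74 bases had a median of 193 counts, the 12 with 35 to 49 bases a median of 114, and the 43 with shorter runs a median of 27.5. No pseudogene with a run of 50 bases or more fell below the minimum, against 3 with 35 to 49 bases and 429 with fewer. Spearman's rho between run and mean count was 0.772 over the 74 pseudogenes (0.557 over all 506 aligned), while rho between entry length and mean count was -0.0535. These are descriptions across entries that share the 12 libraries and, through near-identical sequence, reads.

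**Figure D1:**
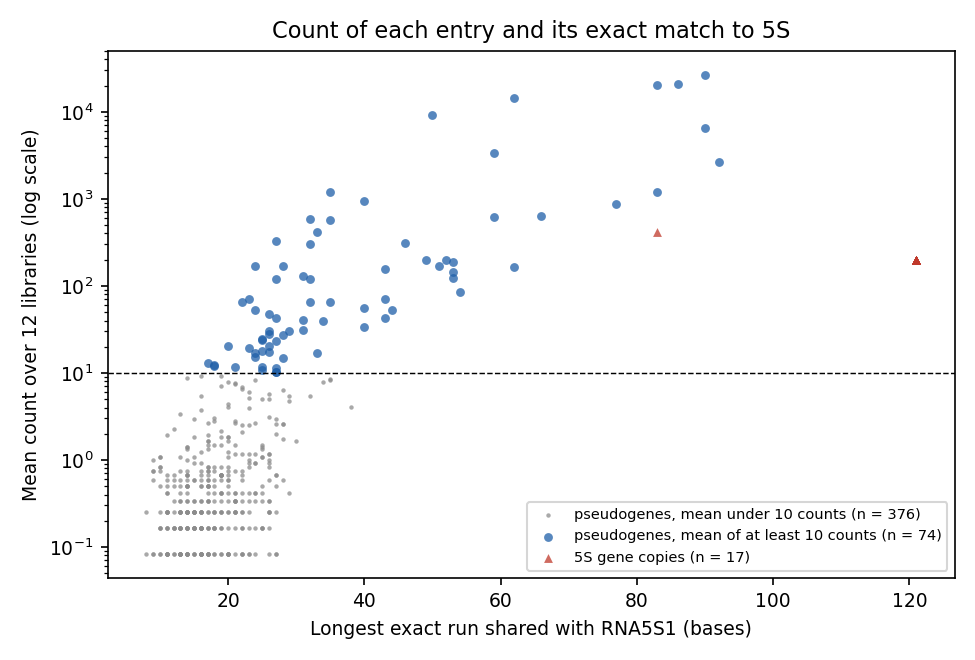
Mean count over the 12 libraries (vertical, log scale) against the longest run of bases shared exactly with RNA5S1 (horizontal), with blue circles for pseudogenes at or above the minimum of 10 counts, grey points for those below it with a count above 0, and red triangles for the 17 located 5S gene copies, of which 16 coincide. The pseudogenes with runs of 75 bases or more had means of 872 to 26677 counts, above the genes at 197 and 418 counts.

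Reads of 75 bases from inside 5S match many places, and the authors kept reads with up to 20 alignments. Of the 47 windows of 75 bases in RNA5S1, the 16 that start at positions 1 to 16 matched 21 to 24 places exactly, above that limit, and the 31 that start at positions 17 to 47 matched 16 to 18 places. In RNA5SP141, RNA5SP216, RNA5SP150, RNA5SP74 and RNA5SP336, by contrast, each window centred in the entry matched 1 place. In RNA5SP389, 93.8% of the windows matched 1 place and 16 windows passed the limit, and in RNA5SP149 87.9% matched 1 place and 9 passed it. Alternate sequences of the genome build were left out of all these window counts. With them, a window of RNA5S1 matched up to 25 places. How reads with several alignments were counted is not given in the sources used here, and the part of these matches in the low gene and high pseudogene counts was not tested. The gene counts are therefore not a measure of how much 5S rRNA a library held.

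**Figure D2:**
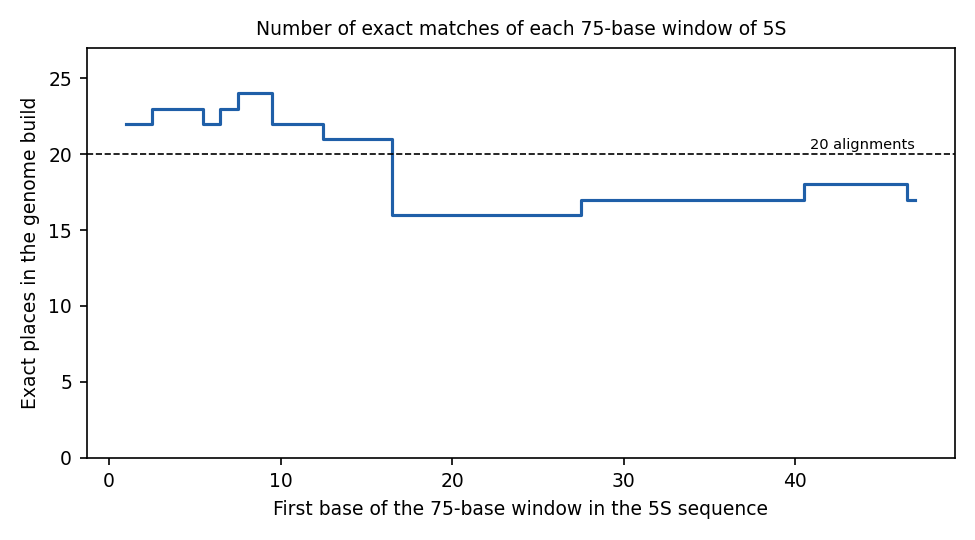
Number of exact places in GRCh38 without its alternate sequences (vertical) for each 75-base window of the 5S gene, by the first base of the window (horizontal), with the limit of 20 alignments as a dashed line. Windows that start at positions 1 to 16 lie above the limit, at 21 to 24 places, and all later ones below it, at 16 to 18.

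The counted pseudogenes were set against those below the count minimum by the stretch of 5S they hold. The sets were divided by the count itself, so their differences are descriptions. The counted ones were also closer to RNA5S1, with a median identity of 93.3% against 84.5%. Whether the other differences between the sets go beyond this closeness was not tested. The 5S part started at positions 1 to 3 in 63 of 74 (85.1%), against 264 of 432 (61.1%) of those below the minimum, and ended at positions 86 to 92 in 49 (66.2%), against 225 (52.1%), while 20 and 130 reached the last 10 positions of 5S. The exact letters of box C, on the 5S strand, stood in 3 of the counted pseudogenes, RNA5SP202, RNA5SP74 and RNA5SP19, and in 2 of those below the minimum. Box A was exact in 30 of 74 (40.5%) against 25 of 432 (5.79%), and the intermediate element in 64 (86.5%) against 211 (48.8%). An exact direct repeat of at least 10 bases, between the 30 bases before the 5S part and the 60 bases after it, was found in 29 of 74 (39.2%) against 63 of 432 (14.6%). Among the pseudogenes that break off at positions 86 to 92 they stood around 24 of 49 (49%) of the counted ones and 42 of 225 (18.7%) of those below the minimum, and among the counted ones that reach the last 10 positions around 3 of 20 (15%). The 20 bases after the 5S part held a median of 30% A in the counted pseudogenes and 37.5% in those below the minimum. The repeats had 17 bases at RNA5SP145 and 13 bases at RNA5SP389, RNA5SP141 and RNA5SP370. RNA5SP216, which breaks off at position 50, had a repeat of 11 bases. The 74 pseudogenes were spread over 20 chromosomes, 42 within protein-coding genes (22 on the same strand as the host and 20 on the opposite strand, 5 over an exon), 10 within other genes and 22 between genes.

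In the CN fraction, some of the 5S entries were lower in HEK UL1 KO than in HEK WT. By edgeR's quasi-likelihood test at an adjusted p of 0.05, 17 of the 19 genes and 25 of the 70 pseudogenes tested were lower and none was higher. Together these were 42 of 89 (47.2%), or 89.5% of the genes and 35.7% of the pseudogenes, where 22.3% of all 27234 entries tested were lower and 37.9% changed in either direction. The 17 genes are the 16 copies with equal counts and RNA5S1_1, so that they rest on 2 sets of counts. Neither the share of the genes nor the pooled share can thus be set against the background as if they were separate. With identical entries counted once, 24 of 74 (32.4%) were lower, against 20.9% of all entries lower and 37.7% changed in either direction. The pooled counts of 5S entries in what follows also take the 16 copies as separate, unless stated. RNA5S9 and RNA5S17_1 were not called. The median log2 fold change was -0.65 over the genes (range -1.06 to -0.38) and -0.48 over the pseudogenes, where it was 0.04 over all entries. In these bulk libraries, fewer cells with an RNA and less RNA in each cell cannot be told apart.

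For RNA5S1, levels in CPM (counts scaled to a common library size, which is the library total times the TMM factor) were 3.21, 2.75 and 4.0 in HEK WT CN and 2.42, 2.28 and 1.60 in HEK UL1 KO CN. Each of the HEK UL1 KO libraries was below each HEK WT library, with a log2 fold change of -0.65 (SE 0.176, adjusted p = 0.0146). RNA5S9 had 6.17, 4.89 and 7.86 CPM against 5.62, 5.14 and 3.73 CPM, so that the groups overlapped and the difference of -0.38 (SE 0.179, adjusted p = 0.118) did not pass. In RNA5S1_1, the levels were 0.879, 0.586 and 1.29 CPM against 0.451, 0.573 and 0.270 CPM, which did not overlap. Each HEK UL1 KO library was below each HEK WT library for 17 of 19 genes, which again rest on 2 sets of counts, and for 22 of 70 pseudogenes (31.4%), where this held for 28.1% of all entries tested. The share of the pseudogenes was thus near that of all entries. The opposite order held for no 5S entry and for 24.7% of all entries.

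The summed genes fell from 65.2 ± 15.4 to 42.9 ± 8.73 CPM (SD, n = 3), and the library values were 61.8, 51.8 and 82.1 in HEK WT CN against 50.2, 45.4 and 33.2 in HEK UL1 KO CN. The summed pseudogenes fell from 2454 ± 598 to 1500 ± 327 CPM (SD, n = 3), from values of 1987, 2245 and 3128 to 1658, 1718 and 1124. In both sums the groups did not overlap, and the log2 fold changes were -0.60 (SE 0.173, adjusted p = 0.0183) and -0.71 (SE 0.206, adjusted p = 0.0196) by edgeR's quasi-likelihood test. HEK UL1 KO CN replicate 3 was lowest in both, and without it the sums were at -0.45 (adjusted p = 0.0766) and -0.55 (adjusted p = 0.0683), and 6 of 93 entries passed (6.45%), where 15.8% of all entries were lower and 25.6% passed in either direction. HEK WT CN replicate 3 was highest in both and had the smallest TMM factor of the CN libraries, 0.760 against 1.01 to 1.09. Without it the sums were at -0.39 (adjusted p = 0.0328) and -0.49 (adjusted p = 0.0248). With all 12 libraries in one fit neither sum passed (adjusted p = 0.196 and 0.241), and with DESeq2 the genes did not (adjusted p = 0.0624). With the 16 equal copies counted once, the summed genes differed by -0.49 (adjusted p = 0.0799). With total counts in place of TMM, the median of all entries moved to 0.24 and the sums to -0.39 (adjusted p = 0.10) and -0.49 (adjusted p = 0.0535). Relative to the median of all entries, the genes were at -0.63 with total counts and at -0.66 with TMM.

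**Figure D3:**
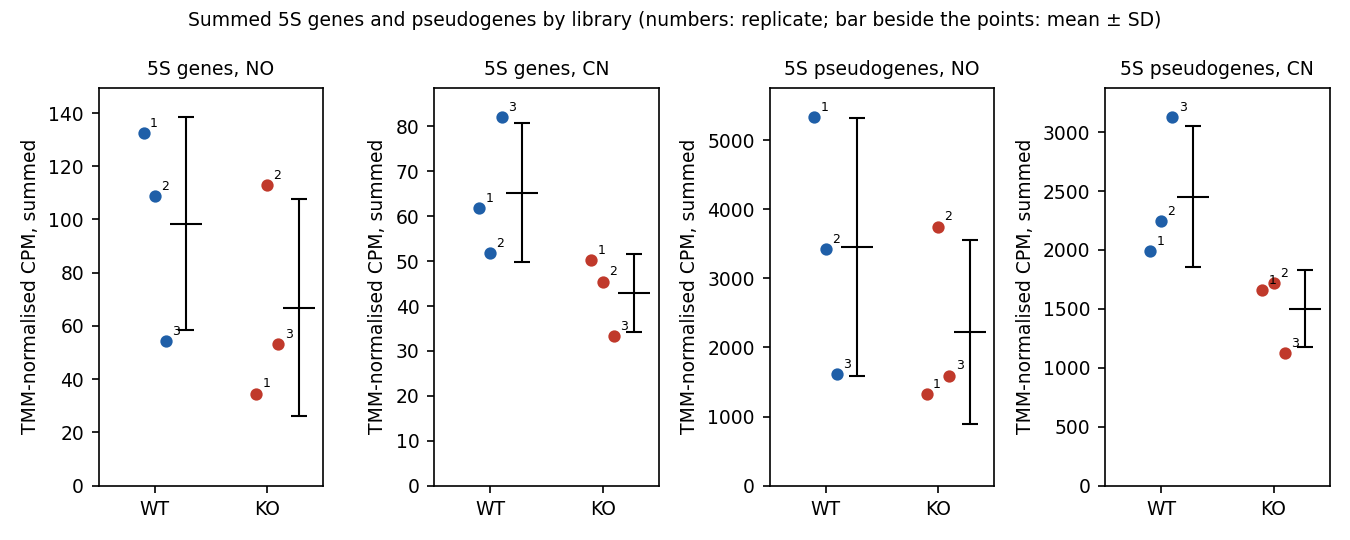
Summed CPM after TMM scaling (vertical, starting at 0) of the 5S genes and the 5S pseudogenes by genotype in the NO and CN fractions, with a point for each library, its replicate number beside it, and a bar for the mean and SD of 3 libraries. In CN the HEK UL1 KO points lie below all HEK WT points in both classes (33.2 to 50.2 against 51.8 to 82.1 CPM for the genes), and in NO the groups overlap.

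Among the pseudogenes with the highest counts, RNA5SP149, RNA5SP145, both RNA5SP389 entries, RNA5SP370 and RNA5SP226 were lower in HEK UL1 KO CN, and RNA5SP216, RNA5SP150, RNA5SP141 and RNA5SP202 were not called. RNA5SP149, with the single change T84A, was at 384, 301 and 462 CPM in HEK WT CN and at 250.0, 221 and 162 CPM in HEK UL1 KO CN, a log2 fold change of -0.86 (SE 0.180, adjusted p = 0.00369). RNA5SP145 was at 305, 387 and 486 CPM against 261, 255 and 164 CPM (log2 -0.79, adjusted p = 0.00947), and RNA5SP389 at 384, 429 and 646 CPM against 339, 288 and 224 CPM (log2 -0.78, adjusted p = 0.0113). These did not overlap between the genotypes. RNA5SP370 also passed (log2 -0.98, adjusted p = 0.0365), although its libraries overlapped, with 82.1, 67.5 and 149 CPM against 52.0, 71.3 and 28.6 CPM, and so did RNA5SP226 (log2 -0.63, adjusted p = 0.0208). RNA5SP216, RNA5SP150, RNA5SP141 and RNA5SP202 had log2 values of -0.45, -0.50, -0.35 and -1.11 with adjusted p of 0.16, 0.0649, 0.686 and 0.215. In RNA5SP202 a single library carried the difference: HEK WT CN replicate 3 was at 127 CPM where the others of its group were at 30.9 and 25.1 CPM.

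The largest differences that passed in CN were in entries with few counts. RNA5SP74 had 93, 191 and 234 counts in HEK WT CN and 76, 65 and 37 in HEK UL1 KO CN (log2 -1.31, SE 0.321, adjusted p = 0.00872). RNA5SP336 had 224, 230 and 521 counts against 143, 135 and 66 (log2 -1.29, adjusted p = 0.0125). RNA5SP463, RNA5SP452 and RNA5SP514 followed with log2 fold changes of -1.18, -1.07 and -0.99, from 9 to 61 counts per library. In all 5, the CPM of the genotypes did not overlap. All 5 keep the exact letters of the intermediate element, as do 64 of the 74 located pseudogenes (86.5%). Their runs of exact sequence were 54, 28, 26, 25 and 40 bases long, and each window of 75 bases in them matched 1 place.

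Counted by form over the 68 located pseudogenes tested, 10 of 19 pseudogenes with a run of at least 50 bases passed in CN and 14 of 49 with a shorter run, with median log2 fold changes of -0.56 and -0.42. By where the 5S part ends, 16 of 46 that break off at positions 86 to 92 and 7 of 18 that reach the last 10 positions passed, with medians of -0.44 and -0.59. By count, 17 of 33 with a mean of at least 100 counts passed and 7 of 35 with fewer, with medians of -0.55 and -0.41. By place, 14 of 40 within protein-coding genes passed and 10 of 28 elsewhere, with medians of -0.45 and -0.53. Differences between these shares were not tested. Of the 64 pseudogenes with negative and the 6 with positive values, the highest was RNA5SP22 at 0.29 (adjusted p = 0.495).

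**Figure D4:**
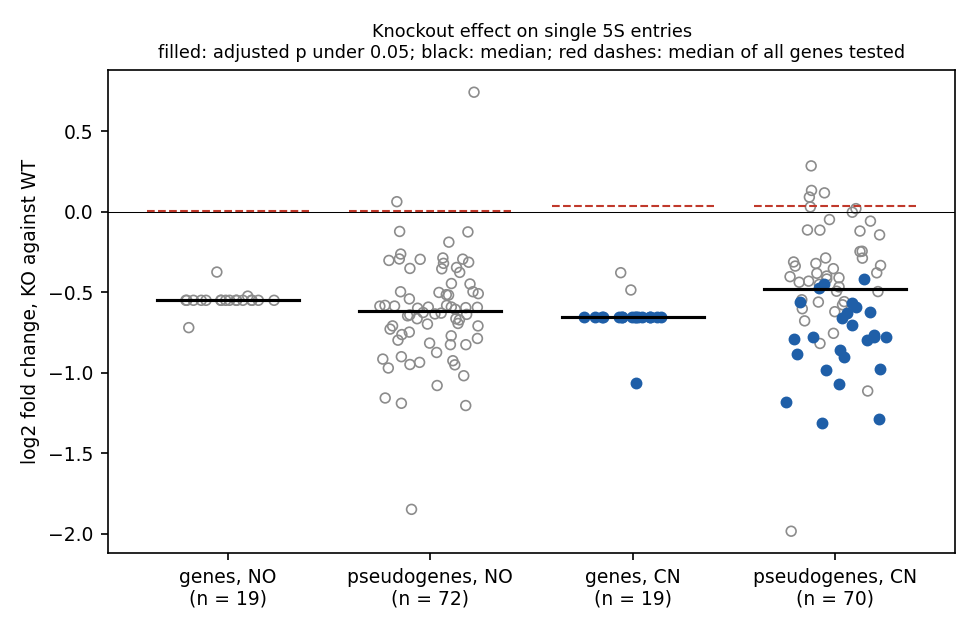
Log2 fold change of HEK UL1 KO against HEK WT (vertical) for each 5S gene and pseudogene tested in the NO and CN fractions, filled where the adjusted p was under 0.05, with the median of each set in black and the median of all entries tested as red dashes. The medians lie at -0.55 and -0.62 in NO, where no point is filled, and at -0.65 and -0.48 in CN.

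For the pseudogenes within a protein-coding gene, the host was read from the same fit. Of the 14 called pseudogenes whose host was tested, 6 had a host that was also lower, 1 a host that was higher and 7 a host that was not called. Of the 26 pseudogenes that were not called and whose host was tested, 10 had a host that was lower, 7 a host that was higher and 9 a host that was not called, where 22.3% of all entries were lower. MED12L, a homolog of a Mediator subunit, fell with RNA5SP145 in its intron (log2 -0.76, adjusted p = 0.00902), and so did OSBPL1A, a lipid-binding protein, with RNA5SP452 (log2 -0.26, adjusted p = 0.0181). NELL1, around RNA5SP336, was at 0.11 (adjusted p = 0.543), NFYB, around RNA5SP370, at -0.12 (adjusted p = 0.311), and PDE10A, around RNA5SP226, at 0.15 (adjusted p = 0.142). GRIN2B, a glutamate receptor gene around RNA5SP353, rose (log2 1.58, adjusted p = 0.000732) while RNA5SP353 was lower (log2 -0.78, adjusted p = 0.0367). The strand setting of the counting is not given in the sources used here, and without it reads of an entry and of a gene that overlaps it cannot be told apart.

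In the NO fraction, no 5S entry passed the test. In data made with a known log2 change of 1, the same fit found 21 of 100 changed entries in NO and 84 of 100 in CN. A count of 0 in NO therefore does not show that the levels were alike. Of 91 entries tested, 0 were called by edgeR's quasi-likelihood test, where 0.939% of all 34836 entries were called. DESeq2 called 0 of 95, where it called 1.82% of all entries. By edgeR, 10 pseudogenes and 0 genes, 11% of the entries tested, had an unadjusted p under 0.05, where 16.0% of all entries had. The values lay mostly on the negative side, against a median of 0.00 over all entries. The median was -0.55 over the 19 genes (range -0.72 to -0.37), of which 16 hold the same counts. It was -0.62 over the 72 pseudogenes, of which 70 were negative. The summed genes were at 132, 109 and 54.2 CPM in HEK WT NO and at 34.6, 113 and 53.2 CPM in HEK UL1 KO NO, with means of 98.4 ± 40.1 and 66.9 ± 40.9 (SD, n = 3). HEK WT NO replicate 3 was near the lower HEK UL1 KO libraries and HEK UL1 KO NO replicate 2 near the higher HEK WT ones, and the difference was -0.56 (SE 0.446, adjusted p = 0.540). The summed pseudogenes were at 5334, 3421 and 1611 CPM against 1329, 3747 and 1591 CPM, a difference of -0.64 (SE 0.627, adjusted p = 0.619). Groups without overlap, lower in HEK UL1 KO, were found for 1 of 91 entries, where they were found for 9.17% of all entries. It was RNA5SP463, with 0.590, 0.557 and 0.523 CPM against 0.226, 0.447 and 0.422 CPM (log2 -0.66, adjusted p = 0.411).

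The NO values moved with several libraries, and the sums did not pass with any single library left out. Without HEK WT NO replicate 3, whose TMM factor stood apart, 28 of 93 5S entries passed (30.1%), all lower in HEK UL1 KO, where 25.1% of all entries passed in either direction and 15.3% were lower. The 93 entries hold the gene copies with equal counts as separate entries. The sums were then at -0.87 (adjusted p = 0.10) for the genes and -0.99 (adjusted p = 0.133) for the pseudogenes. Without HEK UL1 KO NO replicate 2 they were at -1.12 (adjusted p = 0.354) and -1.19 (adjusted p = 0.595), and 1 entry passed. Without HEK WT NO replicate 1 they were at -0.25 (adjusted p = 0.930) and -0.14 (adjusted p = 0.970), and without HEK UL1 KO NO replicate 1 at -0.25 (adjusted p = 0.912) and -0.37 (adjusted p = 0.911). With total counts in place of TMM, which moved the median of all entries from 0.01 to 0.40, the sums were at -0.03 and -0.07 with adjusted p of 0.981 and 0.951.

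Genes and pseudogenes were also set against each other within a library, which needs no scaling. The log2 ratio of summed pseudogenes to summed genes differed by 0.00 between HEK UL1 KO and HEK WT in NO (two-sided exact permutation p = 0.9) and by -0.11 in CN (two-sided exact permutation p = 0.6). With entries of equal counts taken once, these differences were 0.05 (two-sided exact permutation p = 0.5) and -0.25 (two-sided exact permutation p = 0.3). It differed between NO and CN by -0.16 in HEK WT (two-sided exact permutation p = 0.4) and by -0.05 in HEK UL1 KO (two-sided exact permutation p = 0.8), or by -0.36 (two-sided exact permutation p = 0.2) and -0.06 (two-sided exact permutation p = 0.6) with equal entries once. With 3 libraries against 3 the test cannot go below 0.1, so a p above it does not show that the classes moved alike. The ratio with all entries ranged from 4.89 to 5.44 over libraries, on the log2 scale.

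The 5S genes were also set against the 5.8S genes, which encode the other small rRNA of the large subunit. Per total counts of a library, the summed 5.8S genes were at 11180 ± 583 CPM in HEK WT CN and at 4967 ± 529 CPM in HEK UL1 KO CN (SD, n = 3), and the summed 5S genes at 59.96 ± 4.37 and 45.8 ± 8.85 CPM. Both means were thus smaller in HEK UL1 KO, that of the 5S genes by less. The log2 ratio of summed 5S genes to summed 5.8S genes was -7.39, -7.67 and -7.58 in HEK WT CN and -6.72, -6.59 and -7.02 in HEK UL1 KO CN, higher in each HEK UL1 KO library by a mean of 0.77 (exact permutation p = 0.1, two-sided, the smallest that 3 against 3 allow). In NO the ratio differed by 0.10 between the genotypes (exact permutation p = 0.6, two-sided). This ratio was chosen with results of these data known.

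Between the fractions, few 5S entries passed the test. In HEK WT, 0 of 19 genes and 3 of 73 pseudogenes differed between NO and CN by edgeR's quasi-likelihood test. Of all entries, 52.8% did. At an unadjusted p under 0.05 the count of genes was also 0. DESeq2 called 4 of the 5S entries (4.26%), where it called 32.5% of all entries. RNA5SP22, in an intron of GIPC2, was higher in NO (log2 1.43, SE 0.380, adjusted p = 0.0117), with 50, 36 and 30 counts in NO and 22, 20 and 20 in the deeper CN libraries. RNA5SP368, over an exon of GNPTAB, was higher too (log2 1.24, adjusted p = 0.0297), and RNA5SP74 was lower (log2 -1.12, adjusted p = 0.0310). Leaving out HEK WT NO replicate 2, HEK WT NO replicate 3 or HEK WT CN replicate 2 gave 5, 9 and 6 entries. These were 5.38%, 9.57% and 6.52% of the 5S entries tested, where 63.1%, 45.6% and 45.6% of all entries passed. The summed genes differed by 0.08 (SE 0.280, adjusted p = 0.818) and the summed pseudogenes by -0.02 (SE 0.440, adjusted p = 0.976). Of the single entries, 18 of 19 genes were positive, that is above 0 in NO against CN, with a median of 0.01. Of these genes, 16 hold the same counts and are a single measurement. Among the pseudogenes, 56 of 73 were positive, with a median of 0.25 and a range of -1.51 to 1.43. With SE of this size, a small count of calls does not show that the levels were alike.

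In HEK UL1 KO, 0 of 87 entries tested differed between the fractions by edgeR's quasi-likelihood test, where 76.3% of all entries did. At an unadjusted edgeR p under 0.05 the count was also 0. DESeq2 called 0 of 94 entries, where it called 42.1% of all entries. The sums were at 0.05 (SE 0.348, adjusted p = 0.906) and -0.03 (SE 0.389, adjusted p = 0.955). The count of 0 changed with HEK UL1 KO NO replicate 2, the highest of its group. Without it 49 of 90 entries passed (54.4%), all lower in NO, where 73.9% of all entries passed in either direction and 31.8% were lower, and the summed genes were lower in NO (log2 -0.49, adjusted p = 0.0327). The 90 entries hold the gene copies with equal counts as separate entries. The count was 1 without HEK UL1 KO NO replicate 1 or replicate 3 (1.09%, against 68.3% and 75.7% of all entries). It was 5 without HEK UL1 KO CN replicate 3 (5.38%, against 70.4%). With total counts 37 of 87 (42.5%) passed, all higher in NO, where 56.0% of all entries passed. Total counts moved the median of all entries to 0.79 and the summed genes to 0.74 (adjusted p = 0.0424). The size of the difference between the fractions thus depended on the scaling. Relative to the median of all entries, the summed genes were at 0.008 with TMM and at -0.05 with total counts.

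Whether the difference between genotypes was unlike in NO and CN was asked of all 12 libraries together, with an interaction term. None of the 93 entries tested passed by edgeR's quasi-likelihood test or by DESeq2, where 0.114% and 0.137% of all entries did. By edgeR, 1 pseudogene had an unadjusted p under 0.05. The interaction was 0.20 (SE 0.498) for the summed genes and 0.23 (SE 0.629) for the summed pseudogenes, with adjusted p of 1.00 for both. A difference between the fractions in the response to the knockout was therefore not detected for any 5S entry.

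The genes that make and carry 5S rRNA were read from the same fits. In CN, 17 of the 32 genes of this list were lower in HEK UL1 KO, 3 were higher and 12 were not called by edgeR's quasi-likelihood test, where 22.3% of all entries were lower and 37.9% changed in either direction, and the median was -0.27 where all entries had 0.04. In NO, 0 of 32 passed by edgeR and 2 by DESeq2, where 0.939% and 1.82% of all entries did. RPL5, the ribosomal protein that binds 5S rRNA, fell in CN (log2 -0.71, SE 0.0831, adjusted p = 9.18e-05), while RPL11, its partner, was at -0.09 (adjusted p = 0.427). GTF3A, which encodes TFIIIA, the factor specific to 5S genes, was at -0.07 (SE 0.0770, adjusted p = 0.516). Of the general factors of RNA polymerase III promoters, BDP1 (-0.75), TBP (-0.27) and the TFIIIC subunits GTF3C4 (-0.44), GTF3C6 (-0.34) and GTF3C3 (-0.32) were lower, and MAF1, a repressor of the polymerase, was higher (0.52, adjusted p = 0.0191).

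Of the polymerase subunits, POLR3E (-0.91, adjusted p = 5.09e-05), POLR3B (-0.52), POLR3A (-0.51), POLR3F (-0.32) and POLR3G (-0.27) were lower in CN, while POLR3GL (0.72) and POLR3D (0.65) were higher. POLR3G and POLR3GL are alternative forms of the same subunit and had opposite signs. Among the genes that handle the RNA after transcription, RO60, which binds misfolded 5S RNA, was at -0.68, HEATR3, which carries RPL5 into the nucleus, at -0.58, NOP53 at -0.43, RPF2, which delivers the 5S particle to the ribosome precursor, at -0.27, and SSB, which encodes La, at -0.26, all lower by the same test. MDM2, a ubiquitin ligase that free 5S particles bind, was at -0.03 and was not called. Without HEK UL1 KO CN replicate 2, 12 rather than 20 genes of the list passed in CN, where 27.9% rather than 37.9% of all entries passed. Without HEK WT CN replicate 1, HEK UL1 KO CN replicate 1 or HEK UL1 KO CN replicate 3, 13 passed. Of all entries, 30.5%, 26.4% and 25.6% passed there. Without HEK WT NO replicate 3, 19 passed in NO, where the share of all entries rose from 0.939% to 25.1%.

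The balance between pseudogenes jumped between libraries in a way that did not follow the groups. RNA5SP141, whose windows each matched 1 place, had 39234, 20303 and 4448 counts in HEK WT NO, 25131, 7630 and 2915 in HEK UL1 KO NO, 6861, 29018 and 8664 in HEK WT CN and 6412, 21774 and 2569 in HEK UL1 KO CN. Set against RNA5SP145, which lacks its C63T change, it stood at a ratio of 0.897 to 1.46 in 5 libraries and of 0.225 to 0.361 in the other 7, with none between. The 5 libraries were replicates 1 and 2 of HEK WT NO, replicate 1 of HEK UL1 KO NO, and replicate 2 of both CN groups. Both levels occurred in each of the 4 groups. Without RNA5SP141, the summed pseudogenes differed between the genotypes by -0.74 in CN (adjusted p = 0.0157) and by -0.48 in NO (adjusted p = 0.707).

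**Figure D5:**
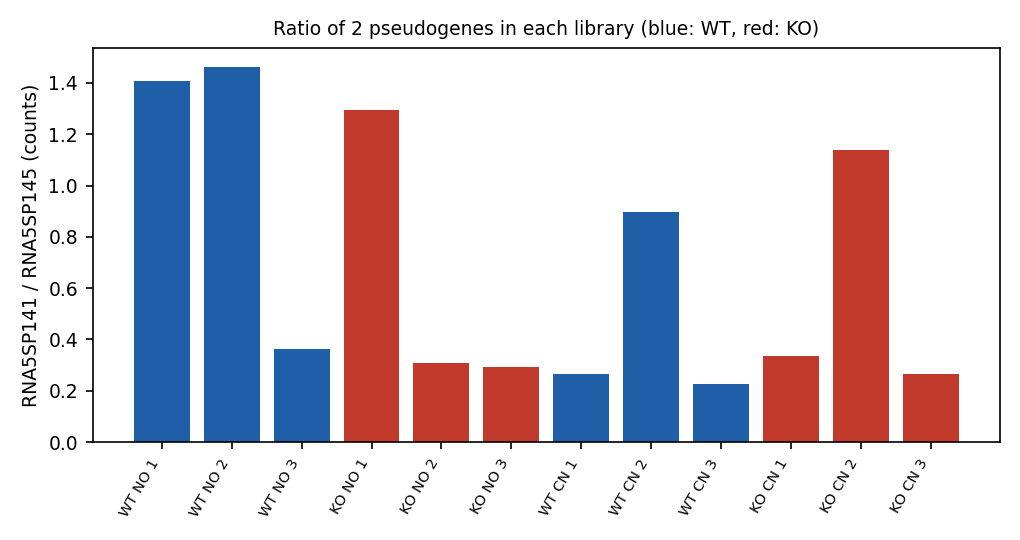
Ratio of the counts of RNA5SP141 to those of RNA5SP145 (vertical, starting at 0) in each of the 12 libraries, blue for HEK WT and red for HEK UL1 KO. In 5 libraries, from each of the 4 groups, the ratio lies between 0.897 and 1.46, and in the other 7 between 0.225 and 0.361.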

How the data were processed

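Total RNA of 12 libraries was sequenced as single reads of 75 bases with a kit that keeps rRNA. The authors trimmed reads with cutadapt 3.7, aligned them to GRCh38 with STAR 2.7.8, allowing 20 alignments per read, and deposited raw counts per gene from featureCounts. The deposited counts of the NO and CN tables were joined on the gene and fitted across all entries with edgeR 4.0.16 in R 4.3.3, with filterByExpr (minimum count 10, minimum total 15), TMM factors, the quasi-likelihood F test and Benjamini-Hochberg adjustment. Each comparison was fitted on its own 6 libraries and the interaction on all 12. For the summed classes, the sums replaced their entries. Ratios within libraries were compared with exact permutation tests. The fits were tested on simulated data. There, a log2 change of 1 was recovered in 21 of 100 entries in NO and in 84 of 100 in CN. A log2 change of 2 was recovered in 99 of 100 entries in NO and in 100 of 100 in CN.

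Coordinates came from RefSeq (GRCh38.p14), where 17 of 19 genes and 74 of 76 pseudogenes were found, and overlapping genes from GENCODE release 44. Sequences were aligned to RNA5S1 with BLAST+ 2.17.0, and differences were read with Biopython 1.88. Windows were counted at exact matches only, without the alternate sequences of the genome build.

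The entries, gene lists and tests were chosen with earlier results of these data known. The rule for names took HNRNPUL1, RNA5S1 and RNA5S9, the 10 pseudogenes with the highest mean count, the 5 with the largest change among those called in a comparison, the 3 entries on each side of the count minimum, host genes of these, and of the 5S factor list each gene called and GTF3A, RPL5, RPL11 and SSB. The other entries named, such as RNA5S1_1, RNA5S17_1, RNA5SP19, RNA5SP353 with GRIN2B, RNA5SP403, RNA5SP473 and RNA5SP482, and MDM2, were chosen after their values were seen. Alternatives were DESeq2 1.42.0, other scalings and filters, all 12 libraries in one fit, a replicate block, identical entries counted once and leaving out each library. Some sequences and genes of the lists are not reported here.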

Additional observations from a re-analysis of the deposited data

How the results depend on the processing

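The lower 5S levels of HEK UL1 KO in CN kept their direction in all alternatives for both sums, but not their side of the threshold. The summed genes were at -0.69 with DESeq2 (adjusted p = 0.0624), -0.39 with total counts, -0.71 with all 12 libraries in one fit (adjusted p = 0.196), -0.49 with identical entries counted once, and -0.77 to -0.39 with each library left out. The summed pseudogenes were at -0.49 with total counts, -0.82 with all 12 libraries in one fit (adjusted p = 0.241) and -0.86 to -0.49 with each library left out. The 42 entries called, all lower, became 8 with total counts (8.99%, against 6.35% of all entries lower and 19.9% in either direction). With all 12 libraries they became 4 (4.3%, against 6.41% and 11.2%), and with identical entries once 24 (32.4%, against 20.9% and 37.7%). With each library left out they ran from 6 (6.45%, against 15.8% and 25.6%) to 52 (56.5%, against 19.9% and 35.2%). In NO the count of 0 became 2 without a filter (2.11%, against 2.02% of all entries in either direction). With each library left out it ran from 0 to 28 (30.1%, against 25.1%). Where not stated otherwise the cause was not tested.

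Between NO and CN of HEK WT, the summed genes (0.08) were at -0.17 with DESeq2, -0.14 without a filter, -0.16 with all 12 libraries and -0.24 to 0.33 with each library left out. The summed pseudogenes (-0.02) were at 0.25 with total counts, 0.058 with TMM without rRNA genes, 0.20 with at least 10 counts in every library, 0.026 without the highest pseudogene, 0.10 without both RNA5SP389 entries, 0.017 without the 6 highest and -0.53 to 0.28 with each library left out. The 3 calls became 10 without a filter (10.5%, against 38.6% of all entries). With each library left out they were 2 to 9, with a highest share of 9.57% against 45.6%. In HEK UL1 KO the summed genes (0.05) were at -0.16 with DESeq2, 0.74 with total counts (adjusted p = 0.0424), -0.14 without a filter and -0.49 to 0.36 with each library left out. The summed pseudogenes (-0.03) were at 0.68 with total counts, 0.036 with TMM without rRNA genes, 0.40 with at least 10 counts, 0.11 without the 6 highest, 0.012 without RNA5SP141 and -0.55 to 0.24 with each library left out. The 0 calls became 37 with total counts (42.5%, against 56.0% of all entries) and 7 without a filter (7.37%, against 51.6%). With each library left out they were 0 to 49, with a highest share of 54.4% against 73.9%. With each library left out, the interaction ran from -0.34 to 0.49 for the genes and -0.31 to 0.67 for the pseudogenes.

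The pseudogene-to-gene log2 ratio between the genotypes in NO (0.00) was at -0.025 without the highest pseudogene, -0.074 without both RNA5SP389 entries, -0.029 without the 6 highest and -0.090 to 0.14 with each library left out, and between the fractions in HEK UL1 KO it ran from -0.15 to 0.035. The 5S-to-5.8S ratio between the genotypes in NO ran from -0.063 to 0.21. Of the factor list, 0 calls in NO became 2 with DESeq2, 1 without a filter and 3 with all 12 libraries. Of all entries, 1.82%, 2.02% and 4.61% were called there. With each library left out the calls in NO were 0 to 19, where 0.343% to 25.1% of all entries were called. The 20 calls in CN became 6 with total counts, 13 with at least 10 counts and 5 with all 12 libraries. Of all entries, 19.9%, 42.9% and 11.2% were called there. With each library left out the calls in CN were 12 to 18, where 25.6% to 36.0% of all entries were called.

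Between the genotypes in NO, total counts turned RNA5S9 to 0.0086, RNA5SP389 and RNA5SP389_1 to 0.042, RNA5SP145 to 0.11, RNA5SP216 to 0.21, GTF3A to 0.16 and RPL11 to 0.14. With each library left out, RNA5SP389 and RNA5SP389_1 ran from -0.99 to 0.028, RNA5SP145 from -1.09 to 0.090, RNA5SP216 from -1.28 to 0.056, RNA5SP150 from -1.45 to 0.40 and RNA5SP202 from -1.11 to 1.29. In CN, GTF3A was at 0.13 with total counts and 0.012 with at least 10 counts, RPL11 at 0.11 with total counts, RNA5SP141 ran from -1.44 to 0.55 and RNA5SP202 from -2.07 to 0.051 with each library left out.

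Deviations from the group means were compared between libraries with the same replicate number (r from -0.482 to -0.0439). Unlike numbers were not compared, so these values cannot tell whether the numbers pair the libraries. With a replicate block the summed genes in CN were at -0.59 (adjusted p = 0.0579), the summed pseudogenes at -0.70 (adjusted p = 0.0687), the summed genes between the fractions of HEK UL1 KO at -0.094, and 0 entries differed between the fractions of HEK WT. The alternatives without the RNA5SP389 entries, the 6 highest or RNA5SP141 were chosen after seeing the data. Exact matches of 75-base windows limit how far single copies can be told apart, at any depth.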

Other observations

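For 2 counted 5S entries, the highest library was over 3 times the next in CPM per total counts. RNA5SP482, at chr20:32050588-32050705 on the plus strand, had 133 counts in HEK UL1 KO CN replicate 1 and at most 1 count in each of the other libraries. RNA5SP403 had 170 counts in HEK WT CN replicate 3 and at most 9 elsewhere. In the same library RNA5SP473 had 381 counts and at most 57 elsewhere, and its CPM there was 2.76 times the next.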
